A study of Mus musculus with 27 samples.

Results

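MHC class II presentation was followed through 7 transcripts of the mouse thyroid, taken from a count table of 54532 gene rows. The genes were chosen by name: H2-Aa, H2-Ab1 and H2-Eb1, which encode chains of the classical class II molecules, H2-DMa and H2-DMb1, which encode the peptide editor, Cd74, the invariant chain, and Ciita, the transactivator of the whole set. All 7 were found in the table and all 7 passed the filter on low counts in every comparison. Proliferative thyroid lesions of exposed mice (PL, n = 9) were compared with normal thyroid tissue of the same exposed mice (NT, n = 9), and both were compared with thyroid of non-exposed mice (NCT, n = 9). The title of the series names radiation as the origin of the lesions. The sources used here give no dose, strain or age. Tissue was cut out by laser capture, and each group held 6 female and 3 male mice. PL and NT of the same number came from the same mouse.

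Class II molecules are heterodimers of an alpha and a beta chain that carry peptides from endosomes to the cell surface and show them to CD4+ T cells. Cd74 escorts newly made heterodimers and blocks their groove, cathepsins trim it, and H2-DM helps to exchange its remnant for antigenic peptide. Constitutive expression is the property of dendritic cells, macrophages and B cells, while epithelial cells, thyroid follicular cells included, can be induced to it by interferon gamma through Ciita.

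In the GENCODE M21 annotation of GRCm38, 5 of the 7 genes lay within the class II region of chromosome 17. H2-DMa (34119541 to 34139101, plus strand) and H2-DMb1 (34153072 to 34160230, plus strand) came first, followed by H2-Ab1 (34257689 to 34269419, plus strand), H2-Aa (34282744 to 34287823, minus strand) and H2-Eb1 (34305867 to 34316674, plus strand). Ciita lay on chromosome 16 (10480059 to 10528418, plus strand). Class II promoters are known for an X box, bound by the RFX complex, and a Y box, bound by NF-Y, at a fixed spacing, and CIITA docks on the factors bound there without touching DNA itself. RefSeq promoter entries for GRCm38.p6 were matched for 4 of the 7 members (H2-Aa, H2-Eb1, H2-DMa and H2-DMb1). H2-Ab1, Cd74 and Ciita were not matched.

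A stretch from each of 2 members and 1 from the related beta chain gene H2-Ob are shown because they carry both elements in this arrangement. Capitals mark GNAAC (N is any base), the part of the X box searched for here, and GATTGG, the Y box in the orientation that holds the NF-Y core. H2-Aa is chr17:34287852-34287919 on the minus strand, H2-Eb1 is chr17:34305761-34305827 on the plus strand, and H2-Ob is chr17:34238803-34238867 on the plus strand. Each line runs 5′ to 3′ along the gene's own strand, and each lies outside the annotated span of its own gene. The H2-Eb1 stretch lies within the span of the antisense gene Gm20513 (34293073 to 34308070, minus strand).
H2-Aa: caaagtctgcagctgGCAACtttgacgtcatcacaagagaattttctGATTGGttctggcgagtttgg
H2-Eb1: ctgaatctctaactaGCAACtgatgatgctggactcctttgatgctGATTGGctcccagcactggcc
H2-Ob: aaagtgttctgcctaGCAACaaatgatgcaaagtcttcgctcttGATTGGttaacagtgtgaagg

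The starts of GNAAC and GATTGG were 32 bases apart in H2-Aa, 31 in H2-Eb1 and 29 in H2-Ob. GATTGG began 49, 60 and 58 bases before the RefSeq start of H2-Aa, H2-Eb1 and H2-Ob. H2-DMb1, H2-Oa and H2-Eb2 held the same arrangement at 32, 32 and 31 bases, in H2-DMb1 with GATTGG 62 bases before the RefSeq start. Neither entry of H2-DMa held it, nor did that of H2-DMb2. Both strands of the 250 bases before each start were searched, the letters do not overlap each other, and the permitted distance of 25 to 40 bases was set after these promoters had been read. Of 32851 promoter entries, 79.6% held GNAAC, 14.6% held GATTGG and 0.788% held the arrangement. These matches describe letters and were not tested for binding.

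Levels are given as CPM, counts scaled to a common library size with TMM factors over the 27 libraries. Libraries held 2923850 to 14148600 counts, with medians of 6479020 in PL, 7220960 in NT and 4622600 in NCT. The thyroid label was met by Tg, the thyroglobulin transcript, at 9455 CPM or more in every library. Transcripts of neighbouring tissue were present as well: 6 of the 27 libraries (PL 2, NT 7, NT 9, NCT 5, NCT 8 and NCT 9) held over 2000 CPM of Pth, the parathyroid hormone transcript, or of Lipf, a gastric lipase transcript, and results are also given without them. Calca, a marker of the calcitonin-producing C cells, was lower in PL than in NT by 4.49 on the log2 scale (edgeR adjusted p = 0.00989), and Bpifa1, an airway secretory gene, by 4.35 (edgeR adjusted p = 0.0356). Against NCT, both fell in PL as well, by 5.43 and 4.18 (edgeR adjusted p = 8.78e-05 and 0.00293), as did Lipf, which was at 9792 CPM in NCT 9 and at most 29.2 CPM elsewhere (edgeR adjusted p = 0.0305). Differences in tissue makeup therefore ran along with the PL comparisons, and their part in the class II values was not tested beyond the values given with each result. In bulk tissue, fewer cells of a type and less RNA per cell cannot be told apart.

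H2-Aa, the alpha chain of the I-A molecule, had 169, 372 and 599 CPM as the lowest, median and highest of the 9 PL libraries, 304, 440 and 956 CPM in NT, and 228, 422 and 690 CPM in NCT. H2-Ab1, its beta chain partner, had 81.2, 294 and 398 CPM in PL, 230, 353 and 664 CPM in NT, and 176, 269 and 497 CPM in NCT. The ranges of the 3 groups overlapped for both chains. PL 3 was the lowest PL library, NT 7 the lowest NT library and NCT 9 the lowest NCT library for both, and NT 6 was the highest of all.

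H2-Eb1, the beta chain of the I-E molecule, had 81.1, 220 and 386 CPM in PL, 168, 304 and 863 CPM in NT, and 144, 223 and 497 CPM in NCT. The groups overlapped, and NT 6 stood apart at the top of NT. The matching alpha chain gene is known to be inactive in some mouse strains. Its locus, annotated as H2-Ea-ps, was at 0 in 5 PL, 3 NT and 4 NCT libraries, with 1.21 CPM as the highest value in any library. H2-Eb1 RNA was therefore measured beside H2-Ea-ps RNA at or near 0.

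Cd74, the invariant chain gene on chromosome 18 (60803848 to 60812652, plus strand), had 103, 331 and 545 CPM as the lowest, median and highest of PL, 218, 366 and 950 CPM in NT, and 157, 337 and 586 CPM in NCT. H2-DMa, the alpha chain of the peptide editor, had 6.82, 28.5 and 50.1 CPM in PL, 22.1, 28.9 and 69.9 CPM in NT, and 18.6, 29.6 and 48.2 CPM in NCT. H2-DMb1, the beta chain, had 19.8, 58.0 and 92.3 CPM in PL, 43.3, 81.2 and 165 CPM in NT, and 30.6, 62.2 and 71.5 CPM in NCT. All 3 groups overlapped for each of these genes, and PL 3 was again the lowest PL library.

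Ciita, the transactivator, had 1.62, 21.3 and 38.3 CPM in PL, 19.0, 28.1 and 69.1 CPM in NT, and 7.98, 23.4 and 51.9 CPM in NCT. The groups overlapped. Within PL the highest Ciita value was 23.6 times the lowest, against 3.54 to 7.34 times for the other 6 members. Reads were counted with a strand setting that the sources used here do not give, so 3 values carry a limit. Dexi (mean 33.5 CPM, minus strand) overlaps Ciita, Brd2 (mean 180 CPM, minus strand) overlaps the 5′ end of H2-DMa, and reads of H2-DMb1 could have been shared with its neighbouring close copy H2-DMb2.

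**Figure D1:**
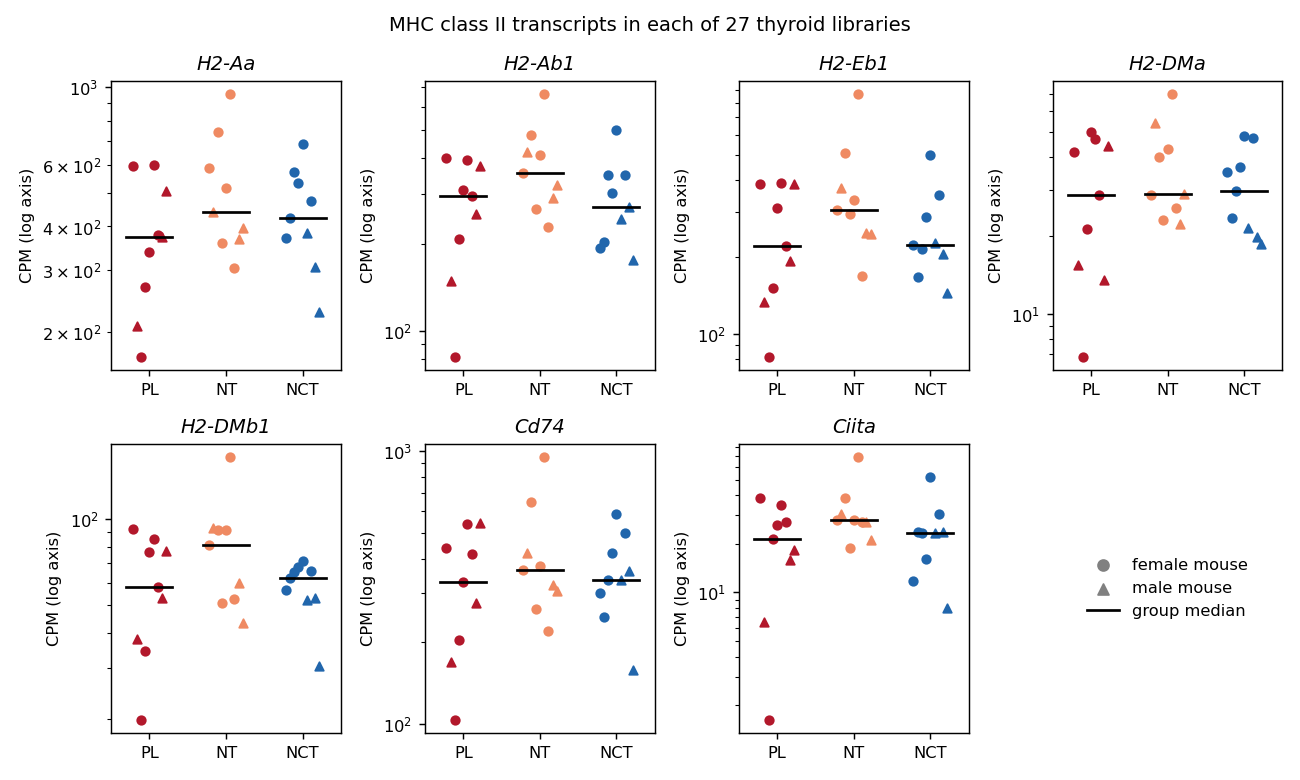
CPM of the 7 class II transcripts on a log axis, with 1 point per library and a bar at the group median for PL, NT and NCT (n = 9 each). The groups overlap for all 7 genes, and a single PL library, PL 3, lies at the bottom of each panel's PL column.

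The comparison of lesions with normal tissue of the same mice found lower fitted values of all 7 transcripts in PL, none of which passed the test. In edgeR's quasi-likelihood test with the mouse as a block, 0 of the 7 members passed an adjusted p of 0.05, where 3.08% of the 14461 genes tested did. At an unadjusted p under 0.05 the count was also 0 of 7, against 17.6% of all genes. DESeq2's Wald test and limma-voom called 0 members as well. The median of the 7 log2 fold changes was -0.45, beside 0.00 over all genes tested, of which 50.2% had positive estimates.

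For the classical chains, H2-Aa averaged 381 ± 157 CPM in PL and 519 ± 213 CPM in NT (SD, n = 9 each), with a log2 fold change of -0.45 (SE 0.22, edgeR adjusted p = 0.330). H2-Ab1 averaged 273 ± 111 CPM in PL and 381 ± 133 CPM in NT, a log2 fold change of -0.52 (SE 0.28, edgeR adjusted p = 0.368). H2-Eb1 averaged 249 ± 119 CPM in PL and 370 ± 208 CPM in NT, a log2 fold change of -0.56 (SE 0.33, edgeR adjusted p = 0.414). The intervals of 2 SE ran from folds of 0.475 to 1.02 for H2-Ab1 and 0.432 to 1.06 for H2-Eb1, so each held both a loss of more than 50% and no difference. That of H2-Aa, from -0.90 to -0.00052 in log2, held neither, but its upper end lay next to 0. The edgeR unadjusted p of H2-Aa was 0.0687, so the test did not exclude no difference.

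Of the accessory genes, Cd74 averaged 336 ± 160 CPM in PL and 431 ± 230 CPM in NT (SD, n = 9 each), with a log2 fold change of -0.36 (SE 0.34, edgeR adjusted p = 0.647). H2-DMa had a log2 fold change of -0.42 (SE 0.31) and H2-DMb1 one of -0.45 (SE 0.26), with edgeR adjusted p = 0.543 and 0.406. Ciita had the most negative estimate and the widest error, with 21.1 ± 12.1 CPM in PL, 32.1 ± 14.9 CPM in NT and a log2 fold change of -0.74 (SE 0.43, edgeR adjusted p = 0.414). Its interval of 2 SE ran from a fold of 0.330 to 1.09.

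The pairs differed widely in size and direction. In mice 2, 3 and 6 all 7 transcripts were lower in PL than in NT, with medians over the 7 genes of -1.48, -2.56 and -0.82 in log2 CPM. In mice 4, 5 and 8, 6 of 7 were lower, with medians of -0.37, -0.19 and -0.22. In mouse 1 all 7 were higher in PL, and in mice 7 and 9 6 of 7 were, with medians of 0.26, 0.31 and 0.61. Ciita was lower in PL in 7 of 9 mice, H2-Ab1, H2-Eb1, H2-DMb1 and Cd74 in 6, and H2-Aa and H2-DMa in 5.

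Mouse 3 carried much of the average. There, PL minus NT was -2.56 for H2-Ab1, -2.65 for Cd74 and -4.34 for Ciita in log2 CPM. Without this mouse the fitted log2 fold change of Cd74 was -0.11, that of H2-Ab1 -0.30 and that of Ciita -0.43, and all 7 stayed negative. Mice 2, 7 and 9 each had a library rich in Pth or Lipf. Without both libraries of these mice the 7 estimates ran from -0.79 for H2-Eb1 to -0.47 for H2-DMa, with edgeR adjusted p of 0.358 or more. The mice left out had medians of -1.48, 0.31 and 0.61 for PL minus NT, so the fit also lost pairs with higher class II values in PL. The part of Pth or Lipf tissue in this shift was not tested.

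**Figure D2:**
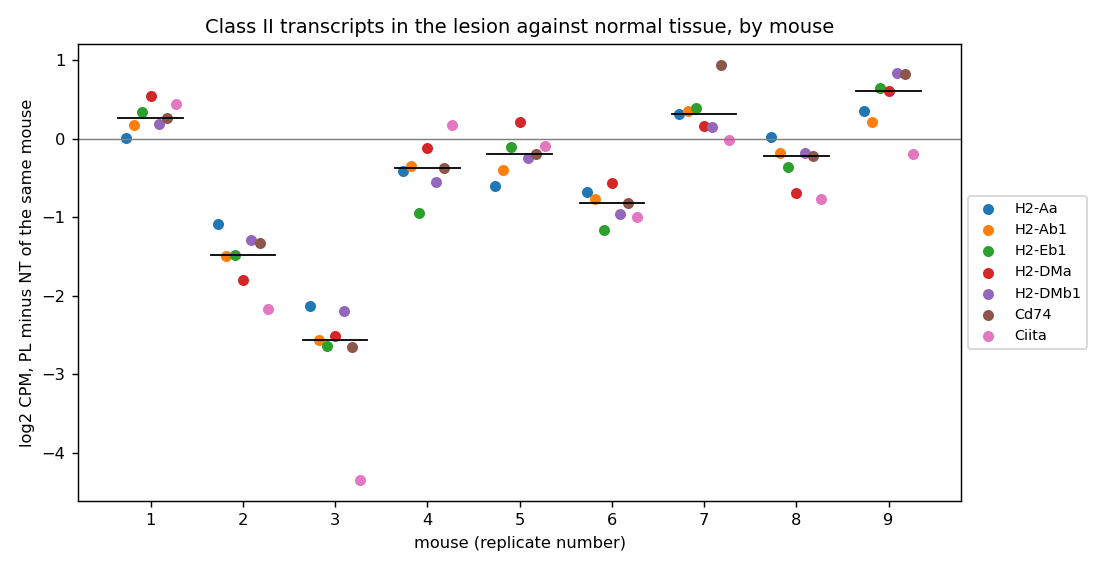
Log2 CPM of PL minus that of NT for each of the 9 mice, with 1 point per class II transcript. The medians over the 7 genes run from -2.56 in mouse 3 to 0.61 in mouse 9, and the genes of mouse 3 span -4.34 to -2.13.

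Transcripts of leukocytes were read in the same pairs. Laptm5, a lysosomal membrane gene of blood cells, had 56.4, 16.2 and 120 CPM in PL and 112, 126 and 233 CPM in NT of mice 2, 3 and 6. In mice 1, 7 and 9 it had 149, 137 and 116 CPM in PL and 126, 73.4 and 68.1 CPM in NT. Laptm5 is among the genes most like the members over these libraries, so this is a description of the pattern and not a separate finding. Coro1a, an actin regulator of leukocytes, was lower in PL than in NT in mouse 9 (12.3 CPM in PL, 17.0 CPM in NT). Summed over Ptprc, Coro1a, Laptm5 and Tyrobp, leukocyte transcripts ranged from 53.3 to 419 CPM in PL and from 143 to 583 CPM in NT, and 0 of these 4 genes passed the test between PL and NT (median log2 fold change -0.38). Their part in the class II differences was not tested.

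Normal tissue of exposed mice was set against thyroid of non-exposed mice to look for a difference outside the lesions. Number series were formed here from the leading digits of the mouse numbers. Fewer digits were kept for the series of NT 1 than for the others. With as many digits as the others, NCT 1 to NCT 3 would not share a series with NT 1. As formed, the series of mouse numbers were not balanced between these groups. NCT 1 to NCT 4 shared a series with NT 1, and NCT 5 shared another with NT 2 to NT 5. PL came from the same mice as NT, so this holds for PL against NCT as well. All 7 class II estimates were higher in NT, and 0 of 7 passed the test, in a comparison where 0.0277% of the 14447 genes tested did. At an unadjusted p under 0.05, the count was 1 of 7, H2-DMb1, against 11.6% of all genes (5.6% higher in NT), and DESeq2's Wald test and limma-voom also called 0 members. H2-DMb1 averaged 81.1 ± 37.2 CPM in NT and 58.4 ± 12.4 CPM in NCT (SD, n = 9 each), with a log2 fold change of 0.46 (SE 0.21, edgeR adjusted p = 0.411). The median over the members was 0.40, beside 0.01 over all genes tested, of which 52.2% had positive estimates.

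H2-Eb1 had the highest estimate, with 370 ± 208 CPM in NT, 257 ± 109 CPM in NCT and a log2 fold change of 0.52 (SE 0.29, edgeR adjusted p = 0.508). It lay above the NCT median in 8 of 9 NT libraries. H2-Ab1 averaged 381 ± 133 CPM in NT and 287 ± 101 CPM in NCT, a log2 fold change of 0.40 (SE 0.21, edgeR adjusted p = 0.472), and Ciita had one of 0.42 (SE 0.29, edgeR adjusted p = 0.596). Each lay above the NCT median in 7 of 9 NT libraries, H2-Aa, H2-DMb1 and Cd74 in 5 and H2-DMa in 4. For H2-Aa, H2-DMa and Cd74 the estimates were 0.22, 0.25 and 0.24, with SE of 0.22, 0.23 and 0.28 and edgeR adjusted p of 0.745, 0.723 and 0.775.

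These values leaned on NT 6, the library with the most class II RNA of the 27, at 3737 CPM summed over the 7 members. Without NT 6, the log2 fold change was 0.0037 for Cd74, 0.05 for H2-Aa and 0.08 for H2-DMa, while H2-Ab1, H2-Eb1 and H2-DMb1 were at 0.25 each. NT 6 was also the library with the highest leukocyte sum, 583 CPM. Within the mouse number series that holds replicates 6, 7 and 8 of each group, the 7 estimates ran from 0.31 for Cd74 to 0.71 for H2-Eb1 with edgeR adjusted p of 0.991 or more, and without the libraries rich in Pth or Lipf they ran from 0.29 for H2-Aa to 0.76 for H2-Eb1.

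Lesions against thyroid of non-exposed mice gave estimates close to 0. None of the 7 members passed, where 10.1% of the 14234 genes tested did; 0 of 7 reached an unadjusted p under 0.05, against 23.6% of all genes, and DESeq2's Wald test and limma-voom called 0. The estimates ran from -0.23 for H2-Aa (SE 0.23) to 0.01 for H2-DMb1 (SE 0.23), with edgeR adjusted p of 0.612 to 0.991. For H2-Ab1, which averaged 273 ± 111 CPM in PL and 287 ± 101 CPM in NCT (SD, n = 9 each), the interval of 2 SE allowed folds of 0.658 to 1.35. This comparison shares its PL libraries with the first and its NCT libraries with the second, so the 3 sets of estimates are not independent. The sign was not stable: within the number series of replicates 6 to 8 H2-Aa was at 0.21 and H2-Ab1 at 0.12, and without the libraries rich in Pth or Lipf H2-Eb1 was at 0.11.

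**Figure D3:**
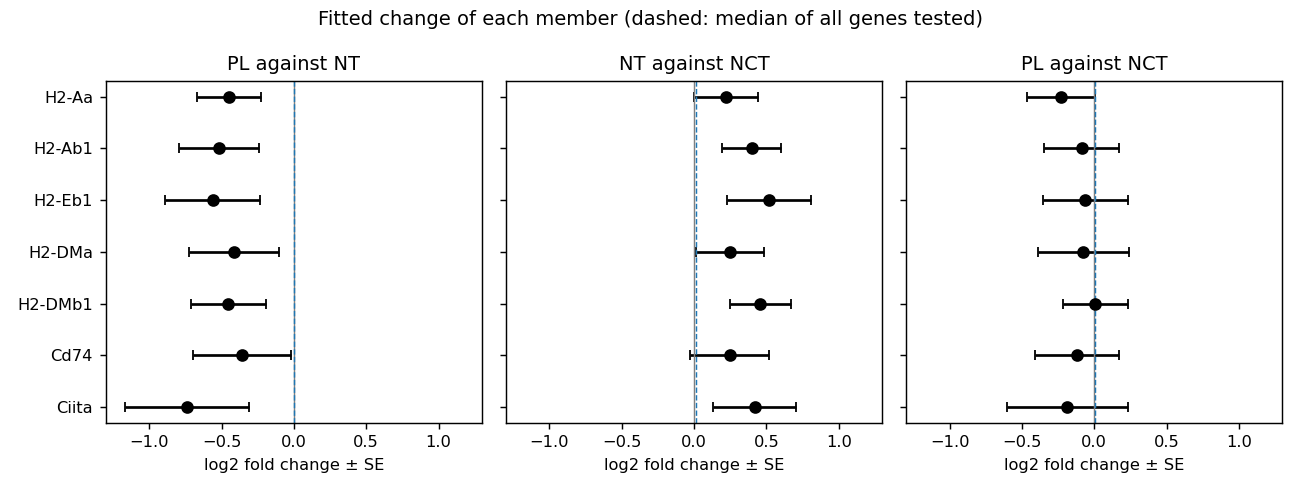
Log2 fold changes for the 7 class II genes in the 3 comparisons, from edgeR's fit across all genes, with standard errors derived from its test statistic. The dashed line is the median of all genes tested, and the estimates lie below it for PL against NT, above it for NT against NCT and close to it for PL against NCT.

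Sex was read in the 18 libraries without lesions, 12 female and 6 male, with NT and NCT as a term in the fit. Sex was not balanced over the number series. NT 1 and NCT 1 to NCT 4, which share a series, were all female, and NT 9 and NCT 9, which share another, were male. The other series held females and males. This fit had no term for the series, so their part in the sex values was not tested. All 7 class II estimates were higher in females, as were 49.5% of all genes tested. The members varied together over these libraries (median r of 0.818), so the 7 directions are not independent. Of the 7, 0 passed the test, beside 0.176% of the 15384 genes tested. At an unadjusted p under 0.05 the count was 2 of 7 (H2-Aa and H2-DMb1), against 6.6% of all genes, and DESeq2's Wald test and limma-voom called 0 members. H2-Aa had 304, 524 and 956 CPM as the lowest, median and highest of the 12 female libraries and 228, 376 and 440 CPM in the 6 male libraries. Its means were 544 ± 185 CPM in females and 354 ± 75.5 CPM in males (SD), with a log2 fold change of 0.63 (SE 0.19, edgeR adjusted p = 0.410).

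The other 6 members ran from 0.33 for H2-Ab1 to 0.55 for H2-Eb1. Libraries rich in Pth or Lipf were 2 of the 12 female and 3 of the 6 male ones. All 8 genes of the other tissue list, which also holds C cell, vessel and matrix genes, had lower estimates in females (median -0.61, 0 passed). Without those libraries the members ran from 0.15 for Ciita to 0.51 for H2-Aa, each with an edgeR adjusted p of 0.999, and 7 genes of all tested passed. Genes of other lists that were higher in females in the same fit were H2-K1, a classical class I heavy chain, by 0.70 (edgeR adjusted p = 0.0250), Jak2, a kinase of interferon gamma signalling, by 0.72 (edgeR adjusted p = 0.00436), and Gbp3, an interferon-induced GTPase, by 1.09 (edgeR adjusted p = 0.0402). These 3 compare with a background of 0.137% of genes higher in females. Tyrobp, an adaptor of myeloid cells, had 0.76 there (edgeR adjusted p = 0.441). Whether the group differences depended on sex was tested by interaction: all members had edgeR adjusted p of 0.962 or more in the 3 comparisons, and 0% of all genes passed, with 2.8%, 2.9% and 5.33% at an unadjusted p under 0.05 for PL against NT, NT against NCT and PL against NCT.

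Among the other class II genes, H2-Oa and H2-Ob encode the H2-O heterodimer, which restrains H2-DM in B cells and some dendritic cells, and H2-DMb2 is the second DM beta chain. They were the 3 of 5 matched genes with enough counts, since H2-Eb2 and H2-Ea-ps were at 0 in many libraries. H2-Ob had 0.471, 3.30 and 7.29 CPM as the lowest, median and highest of PL, 3.38, 5.65 and 8.22 CPM in NT, and 2.03, 2.69 and 5.15 CPM in NCT. It was below the NT median in 7 of 9 PL libraries and above the NCT median in 9 of 9 NT libraries, though the ranges overlapped. H2-DMb2 had 4.46, 6.14 and 20.9 CPM in PL, 5.33, 8.08 and 18.2 CPM in NT, and 1.12, 4.45 and 16.4 CPM in NCT. It was above the NCT median in 9 of 9 NT and 9 of 9 PL libraries, again with overlapping ranges, and lower in PL than in NT in 6 of 9 mice. H2-Oa had 0.942, 2.99 and 9.43 CPM in PL, 0.780, 2.37 and 4.06 CPM in NT, and 0, 1.48 and 2.92 CPM in NCT, and was higher in PL than in NT in 6 of 9 mice. The H2-Ob log2 fold changes were -1.09 for PL against NT (SE 0.48, edgeR adjusted p = 0.251) and 0.66 for NT against NCT (SE 0.30, edgeR adjusted p = 0.396). Those of H2-Oa were 0.44 for PL against NT (SE 0.37, edgeR adjusted p = 0.590) and 0.53 for NT against NCT (SE 0.45, edgeR adjusted p = 0.680). The highest of the 3 estimates for NT against NCT was that of H2-DMb2, 0.73. For PL against NCT the 3 estimates ran from -0.13 to 1.09, with 0.170 as the lowest edgeR adjusted p. There 1 of 3 reached an unadjusted p under 0.05, against 23.6% of all genes. None of these genes passed in any comparison.

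Some enzymes that prepare class II peptides rose in the lesions. Of 7 genes for endosomal proteases and the thiol reductase Ifi30, 2 rose in PL against NT, where 1.76% of all genes rose, and 0 fell. Ctsl, cathepsin L, which cleaves the invariant chain in thymic epithelium and also degrades thyroglobulin, had 318, 901 and 2331 CPM in PL and 203, 308 and 809 CPM in NT. Ctsb, cathepsin B, another protease of thyroglobulin breakdown, had 1110, 1922 and 3535 CPM in PL and 402, 824 and 1410 CPM in NT. The log2 fold changes were 1.27 for Ctsl (SE 0.17, edgeR adjusted p = 0.00537) and 1.20 for Ctsb (SE 0.20, edgeR adjusted p = 0.00937).

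Ctss, cathepsin S, is the protease that trims Cd74 in dendritic cells and macrophages. It averaged 381 ± 207 CPM in PL and 384 ± 222 CPM in NT (SD, n = 9 each). Against NCT, 4 of the 7 rose in PL, where 5.45% of all genes did: Ctsb by 1.61 (edgeR adjusted p = 1.13e-05), Ctsl by 1.19 (0.0148), Ctsh by 0.69 (0.0475) and Ctsd by 0.63 (0.0446), all as log2 fold changes. Between NT and NCT 0 of 7 passed.

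The factors at class II promoters (Rfx5, Rfxank, Rfxap, Nfya, Nfyb, Nfyc and Creb1) counted 0 of 7 in all 3 comparisons, with medians of -0.17 for PL against NT, 0.03 for NT against NCT and -0.03 for PL against NCT. Of the genes for class II turnover and costimulation (March1, March8, Cd83, Cd86, Cd80 and Cd40), 5 of 6 had enough counts and 0 passed in any of the 3. Of 13 genes of the interferon gamma axis with enough counts, 0 passed for PL against NT and 0 for NT against NCT, with medians of -0.14 and 0.28. Against NCT 1 of 13 rose in PL, where 5.45% of all genes did: Socs1, a feedback inhibitor of that pathway, by 1.19 (edgeR adjusted p = 0.0277). Its log2 fold change for PL against NT was 1.05 (edgeR adjusted p = 0.0523), with higher values in PL in 8 of 9 mice. Ifng itself lacked the counts for a test.

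The class I pathway, the parallel route for cytosolic peptides, had 0 of 10 genes past the test for PL against NT (median 0.19) and 0 of 10 for NT against NCT (median 0.36). For PL against NCT 2 of 10 rose, the peptide loading chaperones Tapbp by 0.83 (edgeR adjusted p = 0.000458) and Calr by 0.63 (edgeR adjusted p = 0.00178), beside 5.45% of all genes. The class II and class I medians were -0.09 and 0.44 in that comparison, and the difference between the lists was not tested.

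**Figure D4:**
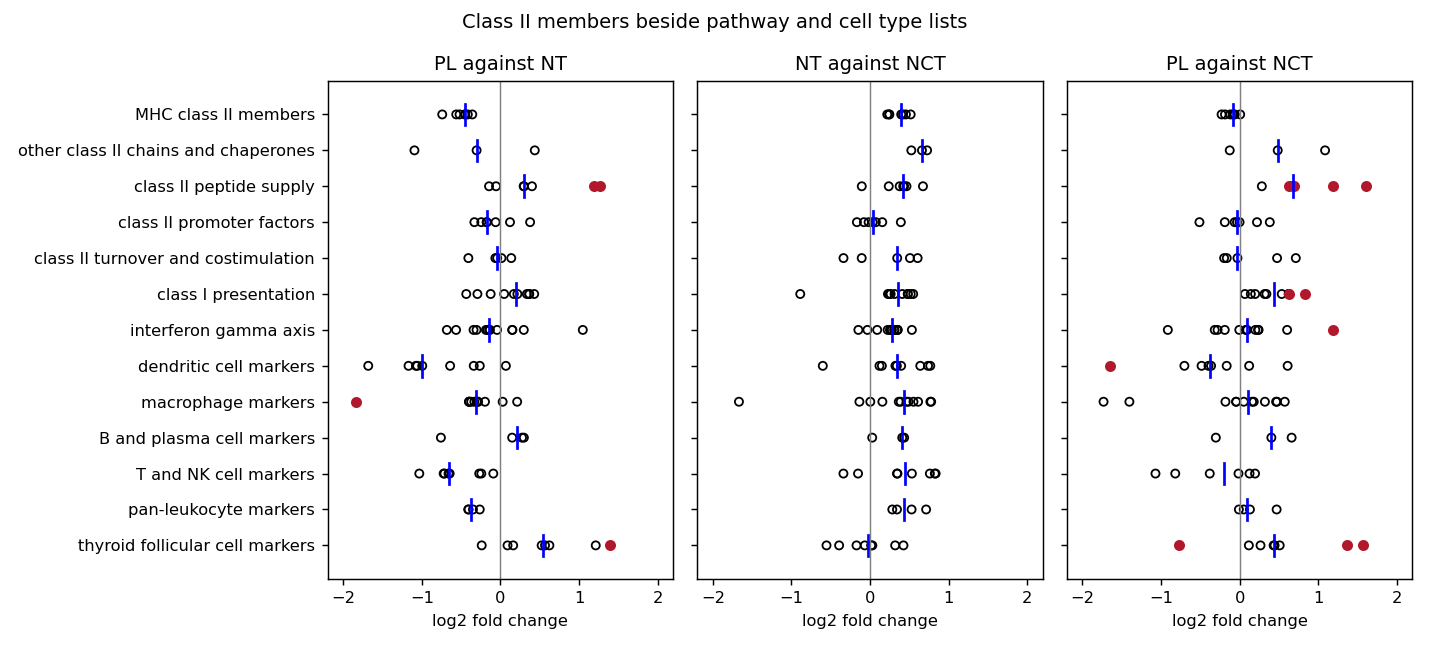
Log2 fold changes of single genes by list in the comparisons, with filled red points for genes that passed the test, open points for the others and a blue bar at each list's median. No class II member is filled, while Ctsl and Ctsb are filled among the peptide supply genes for PL against NT and PL against NCT.

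Markers of the cells that usually carry class II were read beside the members. Of 9 dendritic cell genes tested for PL against NT, 0 passed and 8 had negative estimates, with a median of -0.99. Among all genes tested, 50.2% had positive estimates. Xcr1, a chemokine receptor of cross-presenting dendritic cells, averaged 6.11 ± 2.81 CPM in PL and 12.4 ± 4.77 CPM in NT (SD, n = 9 each), a log2 fold change of -1.08 (edgeR adjusted p = 0.0603). Against NCT 1 of 8 fell in PL, Cd209a, a lectin of monocyte-derived dendritic cells, by 1.65 (edgeR adjusted p = 0.0103), where 4.62% of all genes fell. The dendritic cell sum ranged from 64.7 to 192 CPM in PL, 105 to 240 CPM in NT and 84.3 to 203 CPM in NCT.

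Of 12 macrophage genes, 1 fell in PL against NT, where 1.31% of all genes fell. This was Cd163, a scavenger receptor of tissue-resident macrophages, with 0.299, 4.396 and 21.3 CPM in PL and 9.47, 18.9 and 22.7 CPM in NT, a log2 fold change of -1.84 (SE 0.44, edgeR adjusted p = 0.0422). The macrophage median was -0.32, and the sum ran from 364 to 2610 CPM in PL, 665 to 2670 CPM in NT and 777 to 16906 CPM in NCT. The top value was almost all Lyz2, a lysozyme gene, at 16522 CPM in NCT 9, the library with 9792 CPM of Lipf. Summed over the other 11 macrophage genes, the ranges were 207 to 957 CPM in PL, 357 to 1565 CPM in NT and 384 to 715 CPM in NCT, with NCT 9 the lowest of NCT. B and plasma cell sums ran from 13.7 to 300 CPM in PL, 10.1 to 422 CPM in NT and 17.8 to 219 CPM in NCT. The B cell receptor gene Cd79a was at 0 in 2 PL, 1 NT and 3 NCT libraries.

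T and NK cell sums ran from 2.11 to 46.3 CPM in PL, 11.6 to 59.8 CPM in NT and 4.43 to 59.9 CPM in NCT. Of the 8 T and NK cell genes tested for PL against NT 0 passed, with a median of -0.65. Cd4, the coreceptor of the T cells that read class II, had 0.162, 1.10 and 3.55 CPM in PL and 1.33, 2.86 and 3.75 CPM in NT, a log2 fold change of -1.03 (SE 0.51, edgeR adjusted p = 0.307). Of 8 follicular cell genes 1 rose in PL against NT, where 1.76% of all genes did, and 0 fell: Tshr, the thyrotropin receptor, by 1.40 (edgeR adjusted p = 0.0117). Tg had a log2 fold change of -0.24 there (edgeR adjusted p = 0.567). Against NCT, Tshr rose by 1.57 (edgeR adjusted p = 0.000152), while Tg fell by 0.77 (edgeR adjusted p = 0.0210), beside 5.45% of all genes higher and 4.62% lower. How these cell markers bear on the class II values was not tested.

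The members varied together from library to library. Over the 27 libraries, deviations of log2 CPM from the group mean correlated at 0.776 to 0.954 over the 21 pairs of members, with a median Pearson r of 0.891 and a median Spearman rho of 0.872. Without PL 3 and NT 6, the libraries farthest from their group means, r ran from 0.634 to 0.930 with a median of 0.827. The median r was 0.940 within PL, 0.890 within NT and 0.776 within NCT. These are descriptions over libraries that include the pairs of PL and NT from the same mice, and in the 18 libraries without lesions, each from its own mouse, the median was 0.818. The lowest r of the 21 pairs, 0.776, was that of H2-DMa with Ciita.

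The ratios of partner transcripts were read in each library. The log2 ratio of H2-Aa to H2-Ab1 had a median of 0.48 (0.13 to 1.06) in PL, 0.40 (0.07 to 0.74) in NT and 0.65 (0.19 to 1.05) in NCT. That of Cd74 to H2-Ab1 had a median of 0.18 (-0.03 to 0.55) in PL, 0.01 (-0.11 to 0.52) in NT and 0.44 (-0.17 to 0.64) in NCT. That of H2-DMa to H2-DMb1 had a median of -1.02 (-1.96 to -0.62) in PL, -1.14 (-1.50 to -0.58) in NT and -0.90 (-1.42 to -0.48) in NCT. These are ratios of CPM, which depend on how well each 3′ end was captured, and the groups overlapped for all 3.

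The shared pattern of the members, the mean of their scaled deviations from the group means, was set against 10626 other named protein-coding genes with a mean of at least 5 CPM, whose median r with it was 0.006. The 10 genes most like it over the 27 libraries were Cd52 (r = 0.94), Ctss (0.94), Laptm5 (0.93), Fcer1g (0.91), Csf2rb (0.90), Cyth4 (0.90), Tyrobp (0.89), C1qa (0.88), Ncf1 (0.87) and Ms4a6c (0.87). Without PL 3 and NT 6 their r ran from 0.812 for Ncf1 to 0.917 for Cd52. Cd52 is a surface glycoprotein of leukocytes, Fcer1g and Tyrobp are signalling adaptors of myeloid and NK cells, and C1qa is a complement chain made by macrophages. Ptprc, which encodes CD45, ranked 17th with r = 0.86.

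Likeness to the members differed by list. The limits of at least 5 CPM and protein-coding type left out the T and NK cell genes altogether. They kept 1 of 10 B and plasma cell genes (Jchain, r = 0.60) and 6 of 10 dendritic cell genes. These values can therefore not rank the cell types by likeness. The 4 leukocyte genes had a median r of 0.87 and the 12 macrophage genes one of 0.76, against -0.03 for the 8 follicular cell genes and 0.17 for the 7 promoter factors. The macrophage genes ran from -0.16 to 0.91, with Cd163 at -0.08. The 6 dendritic cell genes had a median of 0.43 (0.14 to 0.83), the 10 class I genes 0.62 and the 13 interferon gamma axis genes 0.48. Itgax, the CD11c integrin chain of dendritic cells, reached 0.83, and Xcr1 0.34. Tg was at -0.11 and Pax8, a thyroid lineage factor, at -0.28. Ctss was at 0.94, whereas Ctsb was at 0.26 and Ctsl at -0.05. Libraries share depth and dissection, so these r values describe covariation among captured samples.

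**Figure D5:**
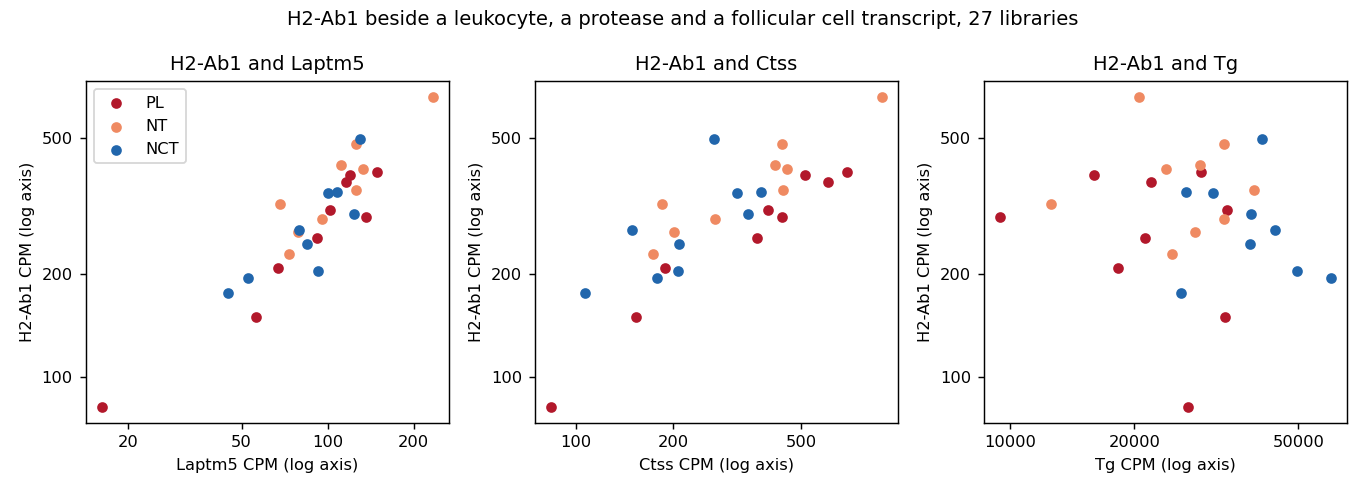
H2-Ab1 CPM against CPM of Laptm5, Ctss and Tg in the 27 libraries, on log axes and coloured by group. H2-Ab1 follows Laptm5 and Ctss in all 3 groups, with PL 3 at the lower left and NT 6 at the upper right, and shows no such course with Tg.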

How the data were processed

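The authors deposited raw counts, without normalization, for 27 laser-captured thyroid libraries, made with a QuantSeq 3′ kit per the labels' protocols. STAR, featureCounts, DESeq2 and GRCm38 are named without roles, per the submitters' processing notes. The sources used here give no strand setting, annotation or molecular identifiers. Of 54532 rows, 54409 were matched by identifier to GENCODE M21 names, and 123 were not. Counts were scaled with TMM and tested with the quasi-likelihood test of edgeR 4.0.16 (R 4.3.3; filterByExpr with a minimum of 10 counts; adjusted p under 0.05, Benjamini-Hochberg over all genes tested), with the mouse as a block for PL against NT. Mouse identity in the labels gave the pairing. Deviations of partners correlated at -0.0162 to 0.212, and the NT library most like PL was its own partner in mice 4, 6 and 8 only. Replicates were separate mice. Group means are ± SD. Likeness used log2 CPM with a prior count of 2. DESeq2 1.42.0 and limma 3.58.1 were alternatives, and the edgeR fits were tested on simulated data. Named genes were all 7 members, every listed gene that passed except 1 not reported here, up to 2 others per list with the smallest p, and the 10 genes most like the members; further listed genes are given as context and were chosen after their values were seen. The members and lists were chosen with earlier results of these data known.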

Additional observations from a re-analysis of the deposited data

Results flagged for a closer look

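For each of the 7 members the CPM in PL, NT and NCT and the PL minus NT differences by mouse, each a set of 9 values, were checked for a value apart from the others, with Dixon's 95% critical value of 0.493. Of 28 sets, 4 had such a value. Chance flags about 1 in 20 of independent, normally distributed sets. These sets are not independent, since the members varied together (median Pearson r of 0.891), and CPM was not checked for normality. The count of flags can therefore not be set against that rate. NT 6 was apart for 3 genes: H2-Eb1 at 863 CPM, H2-DMb1 at 165 CPM and Ciita at 69.1 CPM, with gaps of 0.512, 0.593 and 0.610 of the whole range. NT 6 also had the highest leukocyte, dendritic and T and NK cell sums of NT, and the fits without it are given with the NT against NCT result. NCT 9 was apart at the low end for H2-DMb1, at 30.6 CPM with a gap of 0.527. It was the shallowest library, with 2923850 counts, and had the lowest leukocyte sum of NCT, 107 CPM. It held 9792 CPM of Lipf and 16522 CPM of Lyz2, and its other 11 macrophage genes summed to 384 CPM, the lowest of NCT. The part of depth or tissue makeup in these values was not tested.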

How the results depend on the processing

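In every alternative run, 0 of the 7 members passed in each of the 4 comparisons, and no member changed sign for PL against NT (119 values, lowest adjusted p = 0.151), NT against NCT (203, 0.212) or females against males (168, 0.118). PL against NCT, with estimates near 0, changed sign in 32 of 203 values. Within the number series of replicates 6 to 8 (added after the data were seen) H2-Aa was at 0.21, H2-Ab1 at 0.12, H2-Eb1 at 0.034, H2-DMa at 0.014 and Cd74 at 0.037. Without the libraries over 2000 CPM of Pth or Lipf (also added later) H2-Ab1 was at 0.074, H2-Eb1 at 0.11 and Ciita at 0.094. H2-DMb1 was at -0.012 with limma-voom and -0.092 in females only. Leaving out 1 library gave -0.23 to 0.0066 for Cd74, -0.33 to 0.063 for Ciita, -0.17 to 0.059 for H2-Ab1, -0.19 to 0.063 for H2-DMa, -0.089 to 0.13 for H2-DMb1 and -0.16 to 0.13 for H2-Eb1.

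The number of genes called overall also varied. Instead of 445 genes for PL against NT, DESeq2's Wald test called 1274, no filter on low counts 832 and females only 6. The fit without the Pth or Lipf libraries, which left out mice 2, 7 and 9 whole, called 95. Without the mouse as a replicate block 402 genes passed, and H2-Ab1 was at -0.47. Leaving out 1 mouse gave 137 to 529, with 257, 209, 240, 234 and 137 without mice 2, 3, 4, 7 and 8. Instead of 4 genes for NT against NCT, the Wald test called 134, no filter 15, females only 1, the number series as a covariate 12, that number series alone 0 and the fit without the Pth or Lipf libraries 1. Leaving out 1 library gave 0 to 12: 1 without NT 2, 0 without NT 4 or NT 6, 12 without NCT 7 and 9 without NCT 8. Instead of 1433 genes for PL against NCT, females only gave 450, that number series 77, the fit without the Pth or Lipf libraries 797, and leaving out 1 library 1126 to 1655. Instead of 27 genes for sex, the Wald test called 69, the fit without the Pth or Lipf libraries 7, and leaving out 1 library 15 to 33, with 17 without NT 8 and 15 without NCT 8. The causes were not tested. Ciita had 10 counts in PL 3, which limits its precision there.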
